A study of Mus musculus with 9 samples.

Results

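The 7 genes described here mark cortical projection neurons, the glutamatergic neurons of the cerebral cortex whose axons leave their area: Neurod6, Slc17a7, Neurod2, Tbr1, Fezf2, Emx1 and Rorb. They were chosen by name and with earlier results of these data known, as 7 of 34328 annotated genes. CpG methylation was read at their starts, across their bodies and in tiles of 1 kb. Whole-genome bisulfite sequencing had been applied to DNA from punches of the nucleus accumbens of male C57BL/6J mice aged 8 weeks, in 5 libraries labelled Control (2, 3, 4, 5 and 8) and 4 labelled Susceptible (2, 3, 6 and 7). The treatment text is the same for all 9 libraries: daily social defeat by CD1 aggressor males over 10 days. The sources used here do not give how Control mice were handled, how susceptibility was scored or whether a library is 1 mouse or a pool, so the tests measure the spread between libraries.

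Bisulfite turns unmethylated cytosine into a base read as T, and methylated cytosine still reads as C, so the level is the share of calls that read C. The nucleus accumbens lies in the ventral striatum, where GABAergic projection neurons prevail, while glutamatergic projection neurons sit in the cortex around it. Emx1 is a homeobox factor of the cortical progenitors, Neurod2 and Neurod6 are basic helix-loop-helix factors of young and mature glutamatergic neurons, Tbr1 is a T-box factor of deep-layer neurons, Fezf2 is a zinc-finger factor of neurons that project below the cortex, Rorb is a nuclear receptor of layer IV, and Slc17a7 encodes the vesicular glutamate transporter VGLUT1. Starts rich in CpGs are usually free of methylation in every cell type, whereas CpG-poor starts, gene bodies and the edges of such islands can be less methylated in the cells that use the gene. In DNA from mixed tissue, a change in the share of a cell type and a change of level within cells cannot be told apart.

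The libraries held 313475624 to 570984634 listed calls, each at a cytosine with at least 10 calls, and every Susceptible library had more than every Control library. The autosomal level ran from 74.5% in Susceptible 7, the lowest, to 77.1% in Control 5. In Control 5 and Control 8 the strands of a CpG disagreed 18.4 and 19.7 times as much as binomial sampling gives, against 2.38 to 6.11 times in the other 7 libraries, and what this reflects was not tested. As a check of the tissue, the starts of 16 striatal projection neuron genes averaged 6.40 to 8.01% in the 9 libraries, a low level that does not by itself show that the genes were used.

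The promoters of the 7 genes differ widely in CpG content. Among 32851 RefSeq promoters of 300 bases the median held 7 CpGs, with quartiles of 3 and 20. Neurod6 held 3, Tbr1 7, Slc17a7 13, Neurod2 16, Fezf2 and Rorb 20 each, and Emx1 37, a number that 95.05% of promoters do not exceed. The 250 bases before the start are shown for the member with the fewest CpGs, for a member of middle density and for the densest, 5′ to 3′ on the strand of the gene in RefSeq's GRCm38.p6 table, with every CpG in capitals. They lie at chr6:55681264-55681513 (minus strand) for Neurod6, chr11:98329646-98329895 (minus strand) for Neurod2 and chr6:85187681-85187930 (plus strand) for Emx1.
Neurod6: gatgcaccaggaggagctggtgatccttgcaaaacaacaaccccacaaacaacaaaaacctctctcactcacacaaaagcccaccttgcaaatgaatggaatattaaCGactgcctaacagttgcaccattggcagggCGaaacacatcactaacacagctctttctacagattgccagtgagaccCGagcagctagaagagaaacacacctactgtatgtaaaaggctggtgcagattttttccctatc
Neurod2: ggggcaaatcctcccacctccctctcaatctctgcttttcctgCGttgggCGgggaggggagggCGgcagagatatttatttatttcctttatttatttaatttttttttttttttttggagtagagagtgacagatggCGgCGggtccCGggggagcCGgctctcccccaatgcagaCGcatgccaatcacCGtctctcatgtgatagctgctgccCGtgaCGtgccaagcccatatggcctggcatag
Emx1: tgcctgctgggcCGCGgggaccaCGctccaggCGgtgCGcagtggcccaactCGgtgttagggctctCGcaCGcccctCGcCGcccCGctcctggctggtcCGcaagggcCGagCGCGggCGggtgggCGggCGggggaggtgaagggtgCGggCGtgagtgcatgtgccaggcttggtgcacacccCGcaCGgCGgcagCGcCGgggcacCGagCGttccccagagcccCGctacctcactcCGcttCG
The 3 CpGs of Neurod6 lie 143, 112 and 64 bases before the start and were methylated to differing extents in the same DNA. At the one 143 bases before the start the Control libraries 2, 3, 4, 5 and 8 read 39.02, 55.2, 60, 16.7 and 5.88%, and the Susceptible libraries 2, 3, 6 and 7 read 67.2, 36.4, 34.6 and 25%, on 17 to 81 calls. At the one 112 bases before the start all 9 libraries lay between 63.6% in Susceptible 7 and 100% in Control 5 and Control 8. By contrast, of the 37 CpGs in the Emx1 promoter the highest mean over libraries was 10.2% and the median 1.04%, and for the 16 of Neurod2 these were 27.2% and 6.32%.

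Start windows, taken as 1000 bp on each side of the annotated start, fell into 3 levels. In 5 members, Neurod2, Tbr1, Fezf2, Emx1 and Rorb, the start was low in every library: the highest single value was 12.3%, for Neurod2 in Control 3. Fezf2 read 3.01 to 4.597%, Emx1 1.39 to 4.24% and Rorb 1.66 to 3.61% across the 9 libraries, so these 3 starts spanned 1.58, 2.85 and 1.94 percentage points. Slc17a7 was intermediate and Neurod6 was the most methylated, with 48.3% in its lowest library. The order of the mean levels was therefore Neurod6 (68.0%), Slc17a7 (30.1%), Neurod2 (8.44%), Tbr1 (8.13%), Fezf2 (4.02%), Emx1 (3.54%) and Rorb (2.58%). The ranges of Neurod2 and Tbr1 overlapped, as did those of Fezf2, Emx1 and Rorb, and the other neighbours in this order did not. Gene bodies followed another order, from Neurod6 (83.8%) and Rorb (79.4%) through Slc17a7 (47.5%), Emx1 (42.6%) and Fezf2 (20.02%) to Tbr1 (10.4%) and Neurod2 (2.88%), in which Neurod6 overlapped Rorb and Slc17a7 overlapped Emx1.

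**Figure D1:**
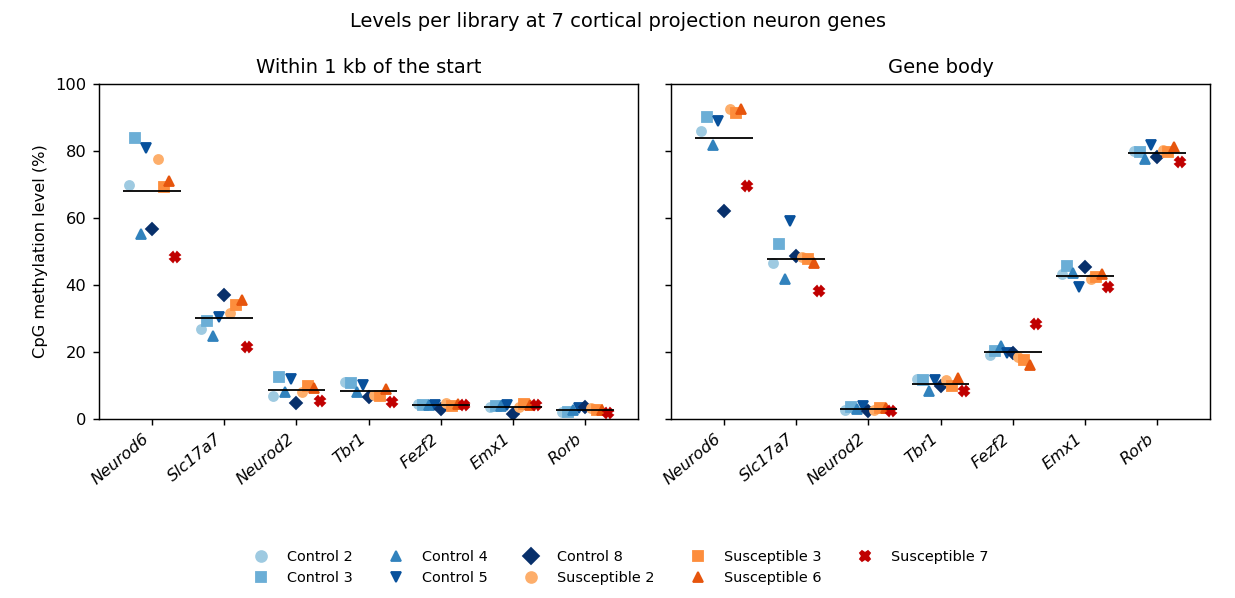
CpG methylation level (%) of each library within 1 kb of the start (left) and over the gene body (right) of the 7 genes. Each symbol is 1 library, blue for Control and orange or red for Susceptible, and the black bar is the mean of 9 libraries. Neurod6 spreads over 35.6 points at its start and 30.3 in its body, while the starts of Fezf2, Emx1 and Rorb lie within 3 points.

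Neurod6, the factor of mature glutamatergic neurons, had the widest range of the 7 start windows and of the 7 bodies. Its start window (23 CpGs listed, 243 to 629 calls per library) read 69.6, 83.9, 55.1, 80.8 and 56.6% in the Control libraries 2, 3, 4, 5 and 8, and 77.7, 69.0, 70.9 and 48.3% in the Susceptible libraries 2, 3, 6 and 7. Susceptible 7, Control 4 and Control 8 were the 3 low libraries and the other 6 lay at 69.0% or more. The strands differed: cytosines of the reverse strand read 43.9, 46.4 and 53.1% in Control 4, Control 8 and Susceptible 7 and 74.9 to 84.6% in the others, while on the forward strand Susceptible 7 (30.1%), Susceptible 6 (50.6%), Susceptible 3 (54.0%) and Control 2 (55.5%) lay below Control 8 (63.1%) and Control 4 (64.0%). The 95% Wilson interval was 43.0 to 53.5% in Susceptible 7 and 80.03 to 87.1% in Control 3; such intervals cover counting error only. Control libraries averaged 69.2% ± 13.3 (SD, n = 5) and Susceptible libraries 66.5% ± 12.7 (SD, n = 4). The difference of -2.75 points was smaller than either SD (quasi-binomial model with limma's moderation of the dispersion, p = 0.792, Benjamini-Hochberg adjusted p = 0.992). With 1 library left out at a time it ran from -6.48 without Susceptible 2 to 3.32 without Susceptible 7.

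The Neurod6 body, at chr6:55677818-55681263, had 2 libraries apart from the rest. It read 85.996, 90.2, 81.6, 89.0 and 62.1% in the Control libraries 2, 3, 4, 5 and 8, and 92.4, 91.4, 92.4 and 69.5% in the Susceptible libraries 2, 3, 6 and 7. Control 8 and Susceptible 7, 1 library from each group, stood more than 10 points below all others, and both strands gave that order. Over CpGs listed in all 9 libraries Control 8 read 50.3%, Susceptible 7 73.1% and the others 85.2 to 93.8%. Without Control 5 and Control 8 the range between libraries was 22.9 points in place of 30.3. The group difference was 4.65 points, below the SDs of 11.5 and 11.3 (quasi-binomial model, p = 0.456, adjusted p = 0.996); with 1 library left out at a time it ran from -0.256 without Control 8 to 10.3 without Susceptible 7.

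Along Neurod6 the variation was not even. The tile of 1 kb with the largest range, at chr6:55682001-55683000 just upstream of the start, read 76.3, 75.2, 63.6, 100 and 50.5% in the Control libraries 2, 3, 4, 5 and 8, and 77.9, 67.4, 65.7 and 34.0% in the Susceptible libraries 2, 3, 6 and 7. Susceptible 7 and Control 5 set its ends, and the range was 66.0 points over all libraries and 14.3 without Susceptible 7, Control 5 and Control 8. The libraries listed 3 to 9 CpGs in this tile, on 109 to 226 calls, so they were not all read over the same CpGs. Near the end of the gene, the tile at chr6:55677001-55678000 was the one low stretch, with 5.95% in Susceptible 7, 41.6% in Control 5 and 13.6 to 23.2% in the others. Outside the gene, from 2 kb upstream and from 6 kb downstream of the start on, tiles returned to levels that mostly exceeded 80%. The tile with the smallest p for the groups, chr6:55685001-55686000, differed by 3.89 points (quasi-binomial model, p = 0.155, adjusted p = 0.997).

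**Figure D2:**
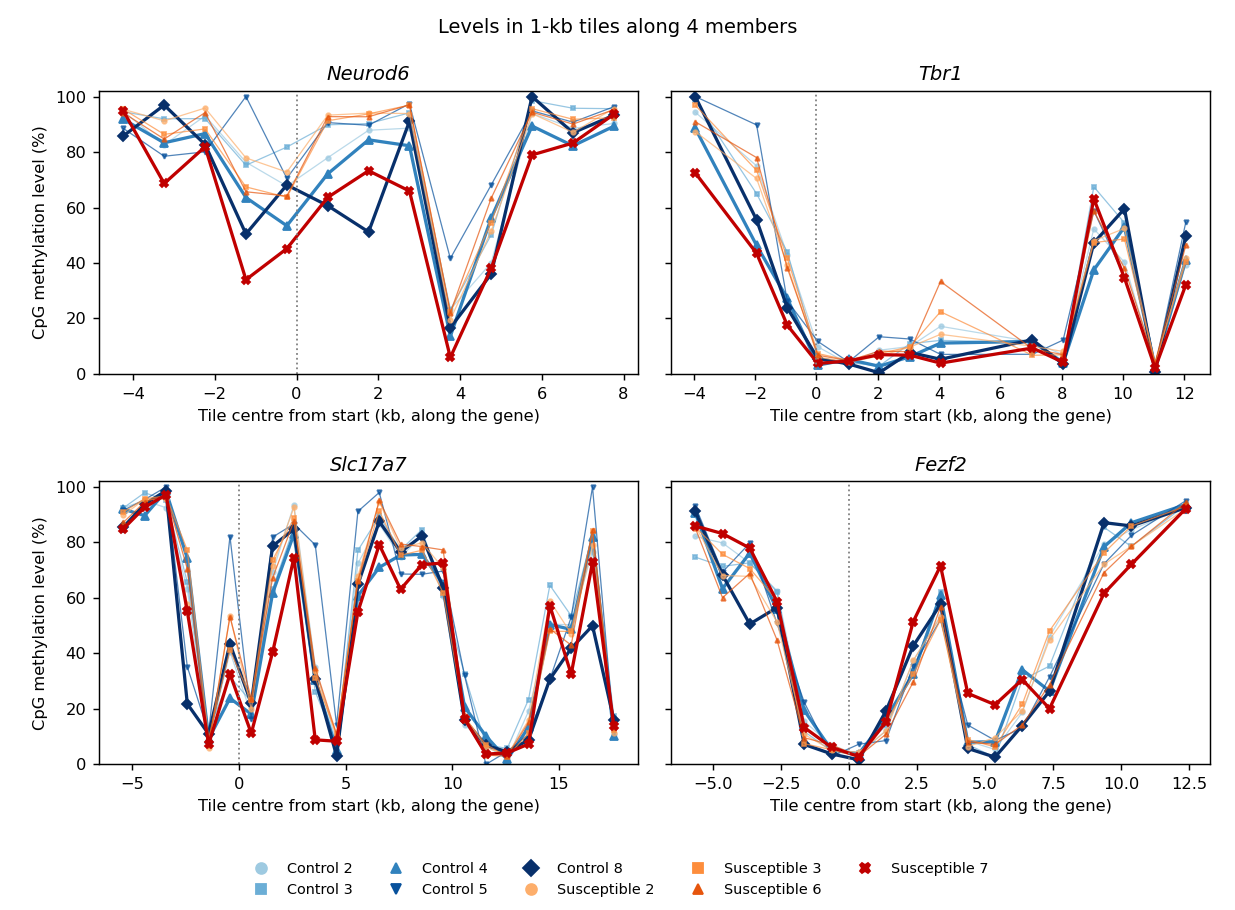
CpG methylation level (%) in tiles of 1 kb along Neurod6, Tbr1, Slc17a7 and Fezf2, by distance of the tile centre from the start (kb, negative upstream); the dotted line is the start and thick lines are Susceptible 7 (red), Control 8 (dark blue) and Control 4 (blue). Susceptible 7 runs below the other libraries just upstream of Neurod6 and Tbr1 and above them 2 to 6 kb inside Fezf2.

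Slc17a7, the transporter gene that marks glutamatergic terminals, spanned 20.8 points in its body and 15.5 at its start; without Control 5 and Control 8 both spanned 14.0 points. The start window (630 to 1432 calls) read 26.8, 29.1, 24.8, 30.3 and 37.0% in the Control libraries 2, 3, 4, 5 and 8, and 31.6, 33.9, 35.5 and 21.5% in the Susceptible libraries 2, 3, 6 and 7. Its highest library was a Control and its lowest a Susceptible one, and the difference of 0.998 points was within the SDs of 4.64 and 6.29 (quasi-binomial model, p = 0.671, adjusted p = 0.989). It moved with the processing: 13.3 points over cytosines with at least 20 calls (unadjusted p = 0.0179, adjusted p = 0.918 in the quasi-binomial model), 4.77 with the replicate block, 4.04 without Susceptible 7, 3.86 in a window of 500 bp on each side, -3.05 in one of 2000 bp and -0.319 over CpGs listed in all 9 libraries. Over CpGs listed in all 9 libraries Susceptible 7 read 32.1% there and was no longer the lowest. The body (chr7:45163921-45176139, 4812 to 10619 calls) read 46.3, 52.1, 41.6, 58.9 and 48.6% in the Control libraries and 48.3, 47.7, 46.3 and 38.1% in the Susceptible libraries, in the same order. Control 5 was the highest and Susceptible 7 the lowest; on CpGs common to all libraries Susceptible 7 remained lowest, at 48.4% against 55.03 to 65.2%. Control bodies averaged 49.5% ± 6.49 (SD, n = 5) and Susceptible bodies 45.1% ± 4.75 (SD, n = 4). They differed by -4.41 points, within the spread (quasi-binomial model, p = 0.311, adjusted p = 0.993). The difference was -2.06 points without Control 5, -2.07 without Susceptible 7, -1.595 without Control 5 and Control 8, -2.14 over CpGs listed in all 9 libraries and -1.24 with the replicate block.

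Of the 24 Slc17a7 tiles Control 3 was the highest library in 9 and Control 5 in 8, and Susceptible 7 was the lowest in 9. In the tile with the largest range, chr7:45167001-45168000, centred 3579 bases after the start, the Control libraries 2, 3, 4, 5 and 8 read 35.1, 26.2, 30.4, 79.1 and 30.8%, and the Susceptible libraries 2, 3, 6 and 7 read 33.8, 31.2, 34.9 and 8.86%. Control 5 was far above and Susceptible 7 far below the other 7 libraries, which lay between 26.2 and 35.1%. Without Control 5 and Control 8 the range was 26.2 points in place of 70.3. The libraries listed 7 to 21 CpGs in this tile, on 158 to 615 calls, so they were not all read over the same CpGs. Tiles with intermediate levels alternated with others that were low in every library, such as the tile at chr7:45176001-45177000 (1.76 to 5.74%). The smallest p lay in the tile at chr7:45162001-45163000, where the means were 10.4% ± 1.66 (SD, n = 5) in Control and 7.41% ± 1.39 (SD, n = 4). The groups overlapped there (quasi-binomial model, p = 0.0248, adjusted p = 0.997).

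Neurod2 was nearly free of methylation inside the gene and varied at its upstream edge. Its body (chr11:98325415-98329645, 286 CpGs listed) read 2.13 to 3.88% in the 9 libraries, with Susceptible libraries -0.194 points from Control (quasi-binomial model, p = 0.836). The tile centred at -855 bases from the start, chr11:98330001-98331000, read 68.9, 79.4, 68.6, 70.1 and 67.2% in the Control libraries 2, 3, 4, 5 and 8, and 71.4, 65.7, 82.1 and 30.4% in the Susceptible libraries 2, 3, 6 and 7. Susceptible 7 stood far below the other 8 libraries, and the range was 51.6 points with it and 16.3 without it. Listed CpGs numbered 4 to 10 per library in this tile, on 92 to 301 calls, and so were not the same in all. In the tile at chr11:98333001-98334000, which had the smallest p of the Neurod2 tiles, Susceptible 7 again read lowest, at 61.6% against 84.0 to 98.2% (difference between groups -8.36 points, quasi-binomial model, p = 0.175, adjusted p = 0.997). Summed from 1 to 5 kb upstream, the Control libraries 2, 3, 4, 5 and 8 read 53.0, 58.3, 62.1, 60.3 and 59.5%, and the Susceptible libraries 2, 3, 6 and 7 read 51.1, 53.0, 48.9 and 38.5%. These groups met at 53.0% without overlap (1.56% of all 1-kb tiles had groups that did not overlap; stretches of this length were not counted), but in each of the 4 tiles of that stretch they overlapped, and because single tiles there range from 4.62 to 98.2%, the sum also moves with which CpGs a library lists; this difference was not tested.

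Tbr1 had a low start and a low body beside a variable edge. At the start window the Control libraries 2, 3, 4, 5 and 8 read 10.9, 10.5, 7.97, 9.90 and 6.33%, and the Susceptible libraries 2, 3, 6 and 7 read 6.93, 6.77, 8.91 and 4.91%. Control 2, 3 and 5 lay above every Susceptible library and Control 4 and 8 among them; the difference of -2.26 points had the smallest p of the 7 starts and did not pass (quasi-binomial model, p = 0.163, adjusted p = 0.971). In the same quasi-binomial model it was -2.96 points without Control 8 (p = 0.0342, adjusted p = 0.981). Without Control 5 and Control 8 the quasi-binomial model gave -2.94 points (p = 0.0453, adjusted p = 0.939). Over CpGs listed in all 9 libraries the quasi-binomial model gave -1.09 points (p = 0.455, adjusted p = 0.956). The replicate block, a different fit on only the 4 libraries numbered 2 and 3, gave -3.90 points and did not pass after adjustment. Nothing in the labels says that equal numbers are paired. The body (chr2:61802863-61814114) spanned 3.96 points, from 8.10 to 12.1%. The gene bound of RefSeq lies upstream of the annotated start used here, and a window of the same size at that bound read 57.1, 55.3, 36.8, 61.5 and 38.2% in the Control libraries and 56.3, 55.6, 56.0 and 31.3% in the Susceptible libraries, in the same order. Control 4, Control 8 and Susceptible 7 were low there, the 3 that were low at the Neurod6 start over both strands together and on its reverse strand but not on its forward strand, and the other 6 lay from 55.3 to 61.5%. The tile with the largest range, chr2:61802001-61803000, lies inside the window at the gene bound and shares its calls, so it is no separate instance of this pattern. It read 46.3% in Control 4, 55.6% in Control 8, 43.5% in Susceptible 7 and 65.0 to 89.8% in the others, with means of 66.3% in both groups. The smallest p was in the tile at chr2:61811001-61812000, with 10.8% ± 2.11 (SD, n = 5) against 8.78% ± 1.42 (SD, n = 4). These groups overlapped through Control 5 alone (7.08%), since the other 4 Control libraries read 11.3 to 12.3% and the Susceptible libraries 6.73 to 9.98% (quasi-binomial model, p = 0.0289, adjusted p = 0.997).

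Fezf2 ran the other way in Susceptible 7. Over its body (chr14:12338992-12346803, 5793 to 12961 calls) the Control libraries 2, 3, 4, 5 and 8 read 19.1, 20.2, 21.7, 19.5 and 19.6%, and the Susceptible libraries 2, 3, 6 and 7 read 18.4, 17.6, 15.9 and 28.2%. Susceptible 7 was the highest of all libraries, on both strands and also over CpGs listed in all 9 libraries (31.6% against 17.9 to 23.8%), while the other 3 Susceptible libraries were the lowest. With Susceptible 7 the group difference was 0.00195 points (quasi-binomial model, p = 0.858, adjusted p = 1); without it the difference was -2.72 points (p = 0.0137, adjusted p = 0.984). The high values of Susceptible 7 lay in 4 neighbouring tiles from 12340001 to 12344000: at chr14:12341001-12342000 it read 25.6% against 5.75 to 14.2% in the other 8 libraries, and at chr14:12343001-12344000 51.5% against 29.7 to 42.7%. The largest range of a Fezf2 tile was upstream, at chr14:12349001-12350000, where Control 8 read 50.6% and the others 67.8 to 79.8%; without Control 5 and Control 8 the range was 10.2 points in place of 29.2. The smallest p was downstream, at chr14:12336001-12337000, with 80.6% ± 5.95 (SD, n = 5) against 69.8% ± 6.16 (SD, n = 4). There too only Control 5 (72.3%) overlapped the Susceptible libraries, which reached 76.3%, and the other 4 Control libraries read 78.5 to 87.2% (quasi-binomial model, p = 0.0271, adjusted p = 0.997).

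Emx1 held the member tile with the smallest p. Its body (chr6:85187931-85204463) read 43.2, 45.6, 43.5, 39.1 and 45.2% in the Control libraries 2, 3, 4, 5 and 8, and 41.6, 42.3, 43.2 and 39.4% in the Susceptible libraries 2, 3, 6 and 7. The difference of -1.71 points had the smallest p of the 7 bodies (quasi-binomial model, p = 0.184, adjusted p = 0.993); it was smaller than the Control SD of 2.58 and larger than the Susceptible SD of 1.64. It was -0.963 points without Susceptible 7 and -2.76 without Control 5, where the unadjusted p was 0.0299 in the quasi-binomial model (adjusted p = 0.971), and -2.36 over CpGs listed in all 9 libraries (unadjusted p = 0.0414, adjusted p = 0.991). At chr6:85194001-85195000, centred 6569 bases after the start, the Control libraries read 70.8, 71.2, 75.2, 74.3 and 69.7% and the Susceptible libraries 65.2, 60.04, 63.7 and 54.9%, in the same order, on 1490 to 2606 calls. All 4 Susceptible libraries lay below all 5 Control libraries, by -11.3 points between the means, with an unadjusted p of 3.16e-05 in the quasi-binomial model that did not pass after adjustment over all tiles (0.997). Its neighbour at chr6:85193001-85194000 did not separate the groups. The largest range of an Emx1 tile was downstream, at chr6:85206001-85207000, where Susceptible 7 read 33.9% and the others 59.2 to 78.1%. Summed from 1 to 5 kb upstream of Emx1, Susceptible 7 was instead the highest library, at 33.6% against 19.98 to 28.9%. On the forward strand alone Control 5 was highest there, and on the reverse strand Control 8. In the same stretch of the other members Susceptible 7 was lowest for Neurod6, Neurod2 and Tbr1, and neither lowest nor highest for Slc17a7, Fezf2 and Rorb.

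Rorb is the longest member and was highly methylated beyond its start. Its body (chr19:18930609-19111196) spanned 5.203 points, from 76.5% in Susceptible 7 to 81.7% in Control 5, and the group means differed by -0.0657 points (quasi-binomial model, p = 0.879, adjusted p = 1). Its promoter, from 250 bases before to 50 after the start, read 0 to 1.39% in the Control libraries and 1.75 to 2.65% in the Susceptible libraries, without overlap, over 7 to 18 listed CpGs and from 171 calls; this difference was not tested. For comparison, the groups did not overlap in 1.85% of all start windows, and they overlapped in the promoters of the other members except Slc17a7, whose promoter lacked calls in at least 1 library. RefSeq gives a second start inside the gene, at a promoter with 5 CpGs, and the window there read 77.9, 76.1, 73.3, 99.1 and 58.3% in the Control libraries 2, 3, 4, 5 and 8, and 79.3, 83.4, 83.6 and 59.6% in the Susceptible libraries 2, 3, 6 and 7. Its range was 40.8 points, against 1.94 at the CpG-dense start, but the mean levels were 76.7% and 2.58%. Over all 1-kb tiles the median range was 26.6 points at levels of 70 to 80% and 3.57 at 0 to 10%. At the second start the range was 24.0 points without Control 5 and Control 8, and 10.3 points without these and Susceptible 7. The tile with the largest range, chr19:18940001-18941000, ran from 30.3% in Control 5 to 85.3% in Control 8, and its range was 40.3 points without these 2. Listed CpGs numbered 4 to 12 per library in this tile, on 68 to 287 calls, and so were not the same in all. The smallest p was at chr19:19010001-19011000, with 84.3% ± 11.7 (SD, n = 5) against 94.0% ± 2.79 (SD, n = 4). Control 5, at 100%, made the groups overlap, and the other 4 Control libraries (67.7 to 86.8%) lay below every Susceptible library (89.9 to 95.7%). The difference was 9.76 points (quasi-binomial model, p = 0.0145, adjusted p = 0.997).

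Control and Susceptible libraries were compared at starts, bodies and tiles in models fitted to all features of the genome. None of the 7 starts or 7 bodies passed at an unadjusted p under 0.05, where 4.77% of all 30937 starts and 4.73% of all 32376 bodies did, and the groups overlapped at all 14, where 1.85% of all starts and 1.61% of all bodies had groups that do not overlap. After Benjamini-Hochberg adjustment 0% of starts, 0% of bodies and 0% of the 1041809 tiles tested were called in the quasi-binomial model; limma on the logit scale also called 0 of each. Of 177 tested tiles within a member or 5 kb around it, 11 had an unadjusted p under 0.05, 4 of them higher in Susceptible libraries, against 4.38% of all tiles. In 2 tiles the groups did not overlap, the lower one in Emx1 described above and a higher one in Rorb (chr19:18980001-18981000, 4.98 points, p = 0.152 in the quasi-binomial model), against 1.56% of all tiles. These shares of the members are near those of the genome. Over the 7 bodies the differences ran from -4.41 points in Slc17a7 to 4.65 in Neurod6, and 5 of 7 were below 0.

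The spread between libraries was read tile by tile, as the highest minus the lowest library. It reached 20 points or more in 77 of the 177 member tiles, against 36.1% of all tiles, and the median range was 17.7 points against 16.1. Tiles near 0 or 100% have little room to vary, so the count was also read by level. Of member tiles with a mean level of 20 to 80%, 49 of 57 varied by 20 points or more, against 80.1% of all such tiles; above 80% it was 27 of 81, against 24.9%; under 20% it was 1 of 39, against 10.5%. Set against the median range of all tiles of their own level class, 94 of the 177 member tiles (53.1%) lay above it, a share near that of all tiles. At the ends they differed more. Above the 90th percentile of their class lay 28 of the 177, more than that percentile leaves above it. Below the 10th lay 11, fewer than that percentile leaves below it. Neurod6 had 9 of 13 tiles at 20 points or more, Tbr1 7 of 14, Rorb 33 of 70, Slc17a7 9 of 24, Emx1 9 of 24, Fezf2 6 of 17 and Neurod2 4 of 15. The order by level differed. Above the median of their level class lay 10 of 15 in Neurod2, 8 of 13 in Neurod6 and 43 of 70 in Rorb. In Tbr1 it was 8 of 14, in Slc17a7 12 of 24, in Emx1 8 of 24 and in Fezf2 5 of 17. Without Rorb it was 51 of 107. Ranges also widen where calls are few, and the median calls per tile were 184 in Rorb, 474 in Fezf2 and 251 over all tiles. The Pearson dispersion sets the spread against binomial counting. Its median was 6.18 in Rorb and 12.5 in Fezf2, against 6.32 over all tiles. It was 16.2 in Neurod6, 10.7 in Tbr1, 10.6 in Slc17a7, 8.43 in Emx1 and 7.80 in Neurod2. Where libraries differ it grows with calls, so neither measure is free of depth. The tiles not tested, for too few CpGs or calls, were 120 in Rorb, 9 in Tbr1, 4 in Emx1, 2 in Fezf2 and 2 in Neurod6, and Neurod2 and Slc17a7 had none.

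**Figure D3:**
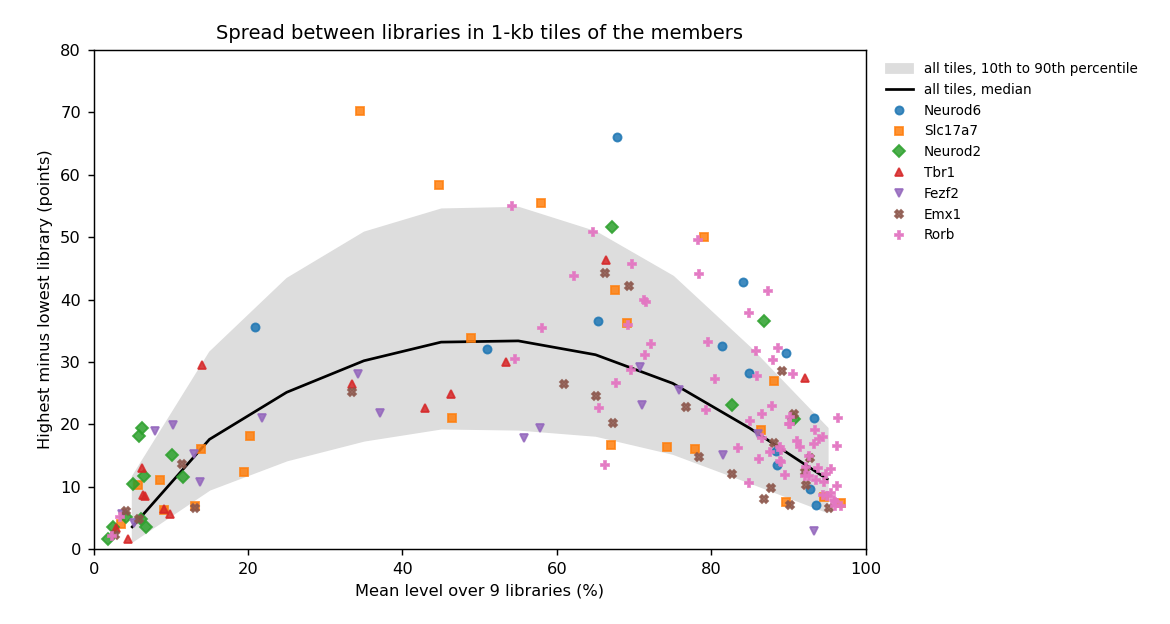
Highest minus lowest library (percentage points) against the mean level of 9 libraries (%) for the 177 tested tiles of the 7 genes, 1 symbol per tile; the grey band runs from the 10th to the 90th percentile of all tested tiles in classes of level and the black line is their median. Of the member tiles 138 lie inside the percentiles of their class, 11 below and 28 above, among the last 11 of Rorb, 5 of Neurod2, 4 of Neurod6 and 4 of Slc17a7.

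The lowest library was counted over the variable tiles. Susceptible 7 was the lowest library in 30 of the 77 variable member tiles (38.96%), while it was lowest in 18.7% of all variable tiles of the genome. By gene this was 6 of 7 variable tiles in Tbr1, 6 of 9 in Neurod6, 3 of 4 in Neurod2, 4 of 9 in Slc17a7, 3 of 9 in Emx1, 2 of 6 in Fezf2 and 6 of 33 in Rorb. Leaving Rorb out, which was decided after these values were seen, gave 24 of 44, and 19 of 36 over CpGs listed in all 9 libraries. Control 8 was the lowest library in 20 of the 77 (26.0%, against 23.6% of all variable tiles), Control 4 in 9 (11.7%, against 10.5%) and Control 5 in 8 (10.4%, against 24.3%). At the other end, Control 5 was the highest library in 30 of the 77 (38.96%, against 31.4% of all variable tiles). Neighbouring tiles share molecules and are not independent, and the members were chosen with earlier results of these data known, so these shares are descriptions. Leaving out Susceptible 7 reduced the variable member tiles from 77 to 59, and leaving out Control 5 and Control 8 together reduced them to 52. A range cannot widen when libraries are left out, so the count could only stay or fall. The share of all tiles without the same libraries is not given here.

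Other genes of the cortical lineage were read from a list of 24: 9 that specify the lineage, 11 of the cortical layers and 4 of the glutamatergic synapse. At their starts 2 of 24 had an unadjusted p under 0.05 in the quasi-binomial model, Cux2 lower (-1.65 points, p = 0.00617) and Tle4 higher (0.501 points, p = 0.0410) in Susceptible libraries, and in their bodies 1 of 24, Slc17a6 (-4.59 points, p = 0.0493); the adjusted p-values were 0.971, 0.971 and 0.993. Over all genes 4.77% of starts and 4.73% of bodies had such a p. In 18 of the 24 bodies the Susceptible mean was lower, with a median difference of -0.659 points beside 19241 of 32376 bodies and -0.388 points over all genes. Bodies of the specification genes averaged 19.3% in Susceptible 7 and 22.2 to 25.03% in the other 8 libraries, which rests on 2 of the 9. In Neurod4, a relative of Neurod6, the body read 44.0% in Susceptible 7 and 55.2 to 73.3% in the others, and in Pax6, a homeobox factor of cortical progenitors, 26.0% against 37.3 to 44.2%. Without these 2 genes the mean was 14.8% in Susceptible 7 and 14.6 to 16.9% in the others, and Susceptible 7 was lowest in 4 of all 9 genes. Layer genes averaged 57.0% in Susceptible 7 and 56.4 to 58.3% in the others, and synapse genes 46.5% against 48.5 to 53.3%. Crym, the layer gene whose body had the largest range (14.9 points), ran from 52.3% in Control 3 to 67.2% in Control 4, with 62.7% in Susceptible 7. Nr4a2, a nuclear receptor of deep-layer and claustral neurons with the next largest range (13.5 points), was highest in Susceptible 7, at 26.6% against 13.2 to 21.5%, as Fezf2 was.

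Markers of other cell types were read in the same libraries. Averaged over the 7 members, bodies read 37.4% in Susceptible 7, 37.9% in Control 8, 39.6% in Control 4 and 41.3 to 43.4% in the other 6 libraries, and starts read 12.8% in Susceptible 7 and 15.2 to 20.8% in the others. Without Neurod6 the bodies averaged 32.1% in Susceptible 7, 32.6% in Control 4, 33.9% in Control 8 and 33.3 to 35.8% in the other 6. The low mean of Control 8 therefore rests on Neurod6. Susceptible 7 stayed the lowest without that gene, but much closer to the others, so its distance rests largely on Neurod6 too. The bodies of 16 striatal projection neuron genes were high in Susceptible 6 and Susceptible 7, at 52.5 and 53.1% against 46.0 to 49.03% in the other 7; Adcy5, the striatal adenylyl cyclase, read 66.0 and 69.8% against 51.6 to 57.5%, and Ppp1r1b, which encodes DARPP-32, 41.8 and 42.4% against 24.7 to 31.7%. Penk, the enkephalin precursor gene and the one with the largest range of the list (19.4 points), did not follow them: it was highest in Control 3 (49.2%) and read 34.2 and 35.5% in Susceptible 6 and 7. The Susceptible mean was higher in 13 of these 16 bodies, with a median difference of 3.36 points, while it was lower in 19241 of all 32376 bodies. In 2 of the 16, Foxp1 and Gng7, the unadjusted p was under 0.05 in the quasi-binomial model (adjusted p = 0.993 for both), against 4.73% of all bodies. Bodies of 6 astrocyte genes averaged 69.8% in Susceptible 7 and 75.4 to 77.6% in the others, and their starts 47.7% against 58.0 to 63.4%. Interneuron, oligodendrocyte and microglia bodies in Susceptible 7 read 38.04, 49.7 and 80.8%, against 38.14 to 41.7%, 50.9 to 55.8% and 82.03 to 85.96%, and all genes averaged 68.4% in it against 69.6 to 70.8%. Susceptible 6 had high striatal bodies without low member bodies (42.0%), and striatal bodies were lowest in Control 8 (46.0%). The part of cell composition in the spread of the 7 genes was not tested.

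**Figure D4:**
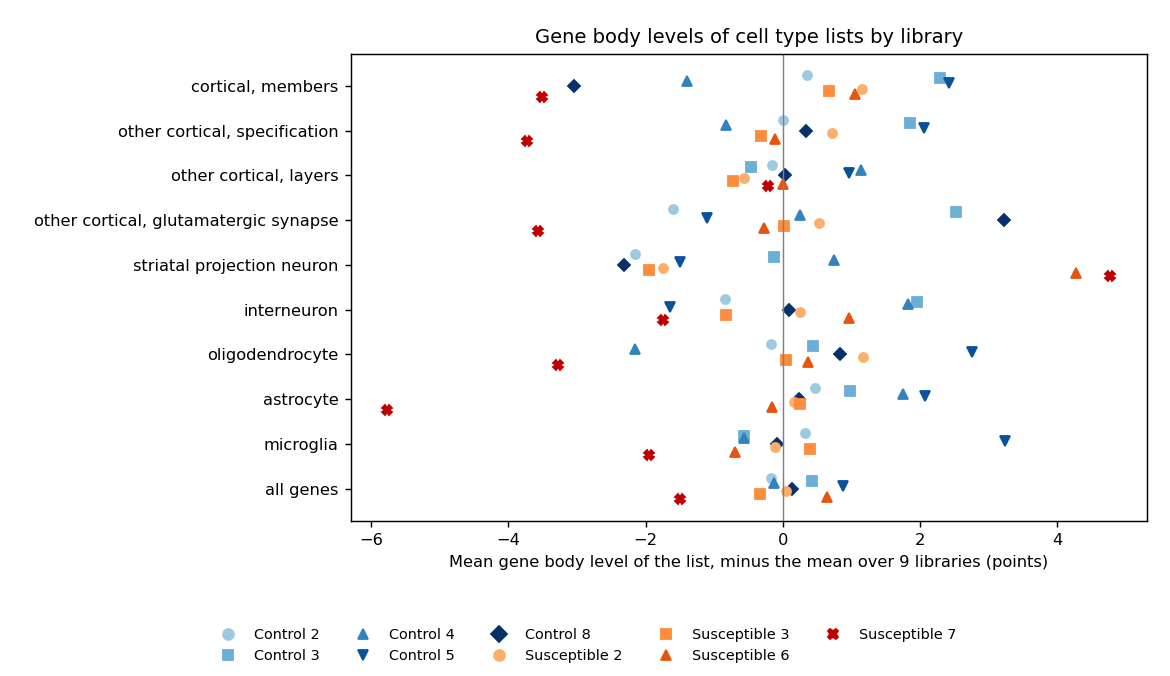
Mean gene body level of each list of genes in each library, minus the mean of the 9 libraries (percentage points); each symbol is 1 library. Susceptible 7 lies lowest for the 7 members, for the specification genes and for astrocyte genes, among others, and highest for striatal genes, and Control 8, through Neurod6, and Control 4 are the next lowest for the members. Without Neurod6 the member mean is 32.1% in Susceptible 7 and 32.6% in Control 4.

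Among 16060 protein-coding genes whose bodies spanned at least 5 points, the ones most like the mean of the 7 member bodies over the 9 libraries were Dab2ip (Pearson r = 0.974), Espn (0.959), Nfic (0.958), Arhgap21 (0.956) and Hunk (0.954), and 68 genes had an r of 0.9 or more. These correlations describe 9 points that share libraries, depth and the overall level of each library, and they carry no test. In Nfic, for example, the body read 48.7% in Susceptible 7, 51.2% in Control 8, 53.9% in Control 4 and 55.6 to 59.98% in the other 6 libraries.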

How the data were processed

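Each of the 9 libraries has 1 deposited file of CpG cytosines by strand. Per the file headers, coverage is a count of calls per cytosine, and the frequency columns hold the percent of those calls that read C or T; the deposited counts are whole numbers of at least 10 per cytosine. Libraries were made from frozen tissue punches with a Zymo Pico Methyl-seq kit, per the labels' protocols. Bismark, Bowtie, Picard and mm10 are named in the submitters' processing notes without versions or roles. No column was left unmapped (0).

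Methylated calls were recovered as count times percent of C, the strands of a CpG were added, and calls were summed per library over 1000 bp on each side of the start, the gene body, and tiles of 1 kb, in which positions are those of GRCm38.p6 in RefSeq's tables (no exon or UTR annotation was used). Starts came from RefSeq's promoter table; for 7534 of 34328 genes without a strand there, the end with more CpGs stood in. Features needed 3 CpGs and 20 calls in every library. Control and Susceptible were compared with a quasi-binomial logistic model with 2 groups, the Pearson dispersion moderated by the formulas of limma's squeezeVar (checked against limma 3.58.1 in R 4.3.3) and kept at 1 or more, an F test, and Benjamini-Hochberg adjustment over all features, in Python 3.11.15 with numpy 2.4.6, scipy 1.17.1 and pandas 2.3.3; the scripts were tested on simulated data. Summed regions and ranges without a p are descriptions.

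The members and the lists were chosen with earlier results of these data known. Named were all members at start and body, the tiles of largest range and of smallest p in each, at most 3 genes of a list by range, and the 5 genes most like the members. Other tiles, the windows at gene bounds, the stretches 1 to 5 kb upstream, the genes named for an unadjusted p among the other lists, and means without Neurod6 or without Neurod4 and Pax6 were chosen after their values were seen. Alternatives covered the test, the moderation, minimum calls, shared CpGs, window size, each library left out, Control 5 and Control 8 left out together, and a replicate block.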

Additional observations from a re-analysis of the deposited data

Results flagged for a closer look

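In groups of 4 or 5 libraries, a library was marked where its gap to the nearest other library took up most of the range of its group. This marked 19 of 116 groups, 11 of them for Susceptible 7. The 95% critical value used marks about 1 in 20 groups by chance where groups are not chosen by their values. Some of these groups are tiles chosen for the largest range or the smallest p, so that rate does not hold for them. Many of the groups also use the same CpGs. No explanation was tested.

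Among regions of the members, Susceptible 7 stood apart from the other Susceptible libraries at the Neurod6 body (69.5% against 91.4 to 92.4%), the stretch 1 to 5 kb upstream of Tbr1 (47.0% against 70.0 to 72.6%) and the window at the Tbr1 gene bound (31.3% against 55.6 to 56.3%). It also did so in tiles of Slc17a7 (45167001 to 45168000, 8.86% against 31.2 to 34.9%), Neurod2 (98333001 to 98334000, 61.6% against 88.5 to 89.6%), Emx1 (85206001 to 85207000, 33.9% against 69.5 to 74.7%) and Rorb (19010001 to 19011000, 89.9% against 95.2 to 95.7%). In means over gene lists it was low for member starts (12.8% against 18.5 to 19.4%), member bodies (37.4% against 41.6 to 42.1%), astrocyte starts (47.7% against 59.5 to 60.8%) and astrocyte bodies (69.8% against 75.4 to 75.8%). Without Neurod6 the member bodies averaged 32.1% in Susceptible 7 and 33.3 to 33.7% in the other Susceptible libraries. The marking was not run on that mean.

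Among Control libraries, Control 8 was low at the Fezf2 start (3.01% against 3.99 to 4.32%), the Emx1 start (1.39% against 3.35 to 4.10%) and the Fezf2 tile from 12349001 to 12350000 (50.6% against 72.6 to 79.8%), and high for the starts of glutamatergic synapse genes (33.4% against 28.0 to 29.6%). Control 5 was high in the Slc17a7 tile from 45167001 to 45168000 (79.1% against 26.2 to 35.1%) and for microglia bodies (85.96% against 82.2 to 83.0%), and low in the Tbr1 tile from 61811001 to 61812000 (7.08% against 11.3 to 12.3%). Control 3 was high in the Neurod2 tile from 98330001 to 98331000 (79.4% against 67.2 to 70.1%).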

How the results depend on the processing

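The number of tiles, starts or bodies called was 0 under every alternative run except 1: leaving out single libraries gave 0 to 1 tiles, the 1 without Control 4. The fit with a replicate block, on the 4 libraries whose numbers 2 and 3 occur in both groups, also called 0 of each; nothing in the labels says that equal numbers are paired, and it has too few libraries to check. Variable member tiles, 77 of 177, were 38 at 30 points, 46 of 121 with at least 100 calls, 50 of 125 over CpGs listed in all 9 libraries, 46 of 92 over cytosines with at least 20 calls, 52 without Control 5 and Control 8, and 59 to 77 with 1 library left out. None of the 14 member differences passed the threshold after adjustment in any of 238 alternative values; 40 in 11 of them changed sign, and the cause was not tested. Sign changed for windows of 2000 bp at Neurod6 (0.229), Slc17a7 (-3.05), Fezf2 (-1.03) and Emx1 (-0.146), for windows of 500 bp at Rorb (1.009), and over shared CpGs at the starts of Slc17a7 (-0.319) and Fezf2 (-0.222) and the bodies of Fezf2 (-0.493) and Rorb (0.814). It changed with the replicate block at the starts of Fezf2 (-0.0325) and Rorb (0.814) and the bodies of Fezf2 (-1.66) and Rorb (0.0405), without Control 5 and Control 8 at the Rorb start (0.312) and the bodies of Fezf2 (-0.327) and Rorb (0.227), and over cytosines with at least 20 calls at the Fezf2 body (-1.13). Those cytosines gave 13.3 points at the Slc17a7 start (unadjusted p = 0.0179, adjusted p = 0.918 in the quasi-binomial model). With 1 library left out, ranges across 0 were -6.48 to 3.32 at the Neurod6 start, -0.626 to 4.04 at Slc17a7, -1.75 to 0.165 at Neurod2 and -0.362 to 0.0959 at Rorb, and in bodies -0.256 to 10.3 for Neurod6, -0.404 to 0.0346 for Neurod2, -0.840 to 0.496 for Tbr1, -2.72 to 1.37 for Fezf2 and -0.625 to 0.881 for Rorb. Chosen after seeing the data, windows at the gene bound gave 0.0350 for Tbr1 and -0.340 for Fezf2. Depth limits the promoter CpGs: 78 of 121 were not listed in all 9 libraries, among them all 13 of Slc17a7.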
